A study of Sus scrofa with 15 samples.

Results

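The NF-κB system was followed in pig intestinal epithelial cells through 10 genes: the 5 subunit genes RELA, RELB, REL, NFKB1 and NFKB2, the feedback inhibitors NFKBIA, TNFAIP3 and TNIP1, and the NF-κB-induced genes BIRC3 and TNFAIP2. They were taken by name, as the rows whose NCBI Gene number carries one of these pig symbols. Both this set and the pathway lists below were chosen with earlier results of these data known. Their shares beside those of all tested genes are therefore descriptive. All 10 were found among the 19000 genes of the knockdown table and the 17001 genes of the overexpression table, and all 10 passed the filter on low values in both (at least 1 FPKM in at least 3 libraries). FPKM counts sequenced fragments per length of gene model and per total of mapped fragments, so levels of different genes are set side by side per length. In bulk RNA of this kind, fewer cells that express a gene and less of its RNA per cell cannot be told apart.

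RNA was sequenced from IPEC-J2, a non-transformed epithelial line of piglet jejunum, after lentiviral delivery of miRNA vectors. Lv133KD is the vector for knockdown of miR-133, Lv143KD is a second knockdown vector, and Lv3NC is their control vector, with 3 libraries each. OV143 is the vector for overexpression of miR-143 and Lv20NC its control vector, again with 3 libraries each. For Lv143KD the target is unsettled, since the design text names miR-133 and the label does not, and the label is kept as its name. All groups carry a vector, no group of untransduced cells was analysed, and with no miRNA row in the tables the knockdown and overexpression themselves could not be checked. Whether the 3 libraries of a group are separate cultures is not stated, so the spread behind each p-value may be technical.

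NF-κB is a family of dimeric transcription factors that inhibitors of the IκB family hold in the cytoplasm of resting cells. Cytokines and microbial products activate the IκB kinase complex, IκBα (encoded by NFKBIA) is degraded, and dimers such as that of RELA with the NFKB1 product enter the nucleus. A slower route runs through the kinase encoded by MAP3K14 to the NFKB2 product and RELB. Many genes that NF-κB switches on, among them NFKBIA and TNFAIP3, encode its own inhibitors, so their transcripts are widely read as a trace of its activity. In the gut epithelium the system drives chemokines, adhesion molecules and survival genes.

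The 15 libraries were alike in the number of genes at 1 FPKM or more, at 11416 to 11449 in each overexpression library and 11250 to 11557 in each knockdown library. FPKM values do not give library size. The FPKM sum of OV143 replicate 2 was 662022, and the other 5 libraries of its table lay between 518578 and 558042, so results are also given without that library. The cells had the epithelial profile of the label: all 6 epithelial markers were detected, but they did not move together. EPCAM was higher without overlap, at 608 to 718 FPKM in OV143 and 486 to 571 FPKM in Lv20NC, CDH1 was lower without overlap, at 159 to 226 FPKM in OV143 and 238 to 258 FPKM in Lv20NC, and the other 4 overlapped. Villous enterocyte markers were low (summed level 9.45 to 9.66 FPKM in OV143 and 8.95 to 9.66 FPKM in Lv20NC). Of 6 leukocyte markers, 5 are in the overexpression table and 2 passed the filter there, with summed levels of 25.8 to 34.8 FPKM in OV143 and 23.6 to 28.5 FPKM in Lv20NC, most of it AIF1. The part of these markers in the results was not tested. Summed leukocyte levels in the knockdown table were 11.8 to 12.1 FPKM in Lv133KD and 10.2 to 13.5 FPKM in Lv143KD. Lv3NC lay above both, at 14.7 to 15.5 FPKM. Most of this was again AIF1, at means of 8.87, 8.82 and 12.5 FPKM in Lv133KD, Lv143KD and Lv3NC. The pan-leukocyte gene PTPRC is listed at 0 in all 9 knockdown-table libraries.

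All 10 genes were clearly expressed without any added stimulus in the labels. NFKBIA was the highest in both tables, at 111 ± 19.6 FPKM over the 6 overexpression-table libraries and 68.6 ± 16.6 FPKM over the 9 knockdown-table libraries (SD), above 94.0% and 90.4% of the tested genes. REL was the lowest, at 6.32 ± 2.10 and 5.82 ± 1.18 FPKM. Among the subunits that carry a transactivation domain RELA was the most abundant, at 36.5 ± 2.77 and 40.0 ± 6.16 FPKM, and it made up 62.0% to 75.3% of the summed RELA, RELB and REL level of a library. TNIP1, whose product is a partner of the TNFAIP3 protein, had a coefficient of variation of 7.76% in OV143 and 6.47% in Lv20NC, and of 12.0%, 19.3% and 11.1% in Lv133KD, Lv143KD and Lv3NC. TNFAIP3, which encodes a ubiquitin-editing inhibitor of the pathway, varied more, at 38.1% in OV143 and 12.6% in Lv20NC, and at 46.6%, 60.2% and 20.5% in Lv133KD, Lv143KD and Lv3NC.

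In the overexpression table the order by mean was NFKBIA, TNFAIP2, TNFAIP3, RELA, TNIP1, NFKB2, BIRC3, NFKB1, RELB and REL. NFKBIA exceeded TNFAIP2 in 6 of 6 libraries and their ranges did not overlap, while every other pair of neighbours had overlapping ranges. This order pools groups that differ: TNFAIP3 exceeded RELA in 4 of 6 libraries, among them all 3 of Lv20NC, while by mean it lay below RELA and TNIP1 in OV143 (26.5, 34.5 and 32.8 FPKM) and above both in Lv20NC (50.5, 38.5 and 34.9 FPKM). In the knockdown table the order was NFKBIA, TNFAIP2, RELA, NFKB2, TNFAIP3, TNIP1, BIRC3, NFKB1, RELB and REL. There TNFAIP2, RELA, NFKB2, TNFAIP3 and TNIP1 formed a stretch without a stable order: TNFAIP2 exceeded RELA in 5 of 9 libraries, NFKB2 exceeded TNFAIP3 in 5 and TNFAIP3 exceeded TNIP1 in 4. RELB and REL were the only neighbours of this table whose ranges did not overlap. The vector, the table and its normalisation cannot be told apart between the tables, in which NFKBIA averaged 126 ± 14.5 FPKM in the control vector Lv20NC and 66.4 ± 5.91 FPKM in the control vector Lv3NC (SD, n = 3 each).

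**Figure D1:**
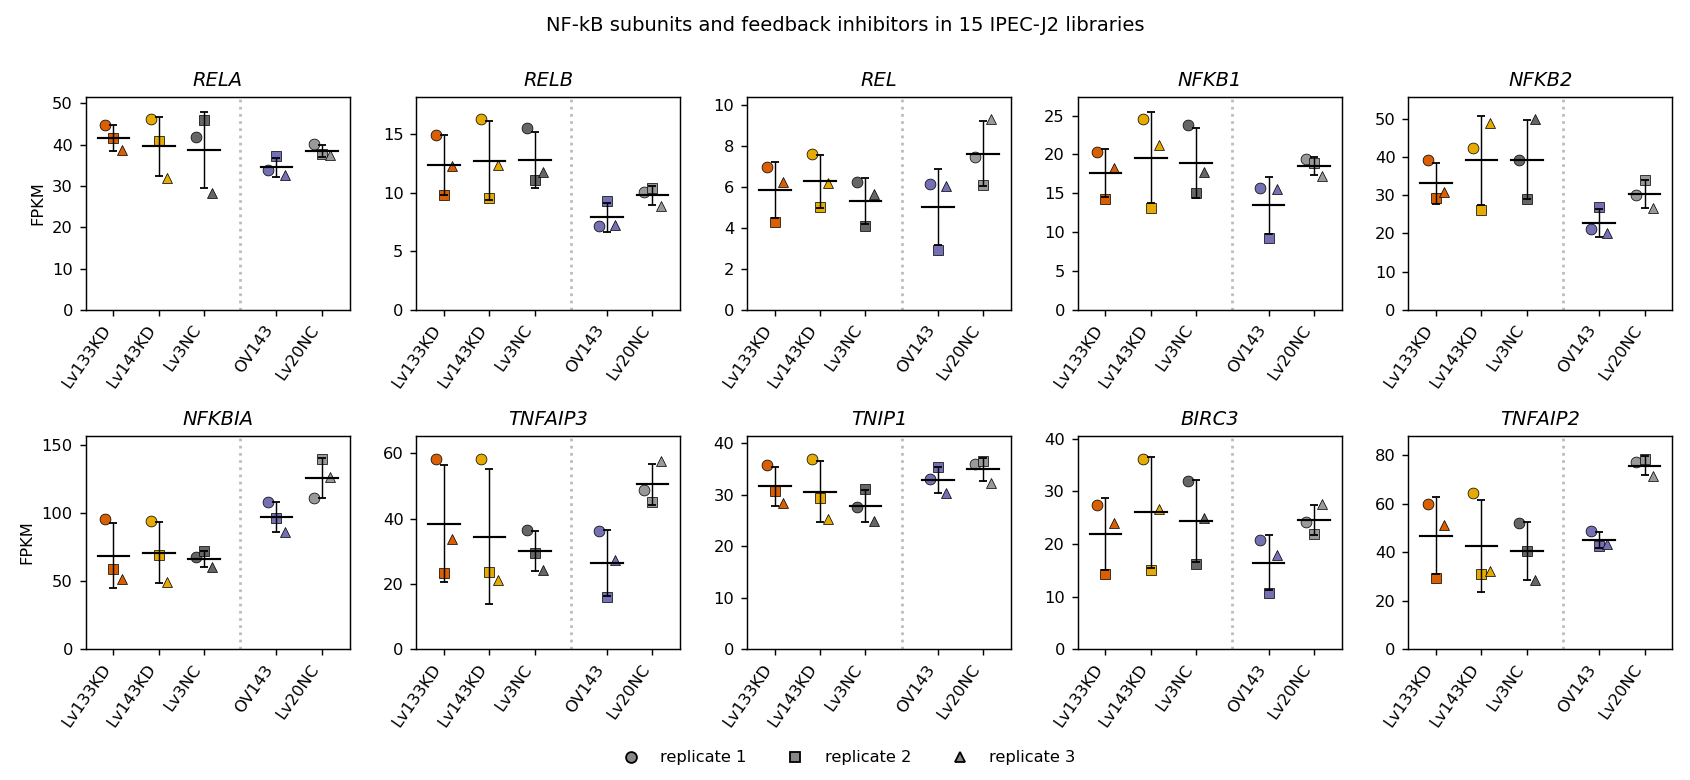
FPKM of each of the 10 genes in every library. Symbols mark the replicate number, horizontal bars the group mean and error bars the SD of 3 libraries, and the dotted line divides the knockdown table (left) from the overexpression table (right). In OV143 every mean is below that of Lv20NC, and 6 genes have no overlap between those groups, whereas the 3 groups of the knockdown table overlap for all 10 genes.

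The first question is how these genes stood in cells given the miR-143 overexpression vector. All 10 NF-κB genes were lower in OV143 than in Lv20NC, and each of them was lower in all 3 pairs of libraries with the same replicate number, which held for 26.0% of all tested genes. The median log2 fold change of the 10 genes was -0.43, against -0.02 over the 11506 tested genes, of which 54.2% were lower. For 6 of the 10 genes (RELA, NFKB1, NFKBIA, TNFAIP3, BIRC3 and TNFAIP2) every OV143 library was below every Lv20NC library, which was so for 12.9% of all tested genes. In limma with Benjamini-Hochberg adjustment over all tested genes none of the 10 passed an adjusted p of 0.05, and no gene of the table did (0.00%). At an unadjusted p under 0.05, 6 of the 10 were lower, against 6.90% of all tested genes. With the replicate number as a block, TNFAIP3 and TNFAIP2 fell, 2 of 10 against 1.29% of all tested genes (149 genes lower), and 8 of the 10 were lower at an unadjusted p under 0.05, against 11.1% of all tested genes.

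The subunit genes of the canonical route were lower by small to moderate amounts. NFKB1, whose product is processed to the DNA-binding partner of RELA, was at 15.6, 9.24 and 15.5 FPKM in OV143 replicates 1 to 3, against 19.4, 18.9 and 17.2 FPKM in Lv20NC. The groups did not overlap, and the difference was larger in the second pair than in the others (log2 fold change -0.46, SE 0.19, limma adjusted p = 0.436, and 0.137 with the block). REL, the subunit best known from lymphocytes, was at 6.16, 2.90 and 6.02 FPKM in OV143, against 7.48, 6.10 and 9.29 FPKM in Lv20NC. These groups overlapped, since OV143 replicate 1 lay above Lv20NC replicate 2 (log2 fold change -0.55, SE 0.26, adjusted p = 0.474, and 0.0638 with the block). RELA was at 33.9, 37.2 and 32.6 FPKM in OV143, against 40.1, 37.8 and 37.6 FPKM in Lv20NC. Its groups were apart by less than 1 FPKM at their nearest libraries, and its log2 fold change of -0.15 had a 95% interval from -0.37 to 0.06.

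The subunits of the slower route were lower to a like degree. NFKB2, the precursor that this route processes, was at 21.2, 27.1 and 20.1 FPKM in OV143, against 30.1, 34.0 and 26.7 FPKM in Lv20NC. OV143 replicate 2 lay just above Lv20NC replicate 3, so the groups touched (log2 fold change -0.40, SE 0.14, limma adjusted p = 0.354, and 0.0712 with the block). RELB, its dimer partner, was at 7.16, 9.30 and 7.25 FPKM in OV143, against 10.1, 10.4 and 8.89 FPKM in Lv20NC. Here too only OV143 replicate 2 reached the range of the control vector (log2 fold change -0.28, SE 0.13, adjusted p = 0.457, and 0.193 with the block).

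Among the inhibitors the differences ran from large to almost none. TNFAIP3 was at 36.1, 16.0 and 27.3 FPKM in OV143, against 48.7, 45.2 and 57.5 FPKM in Lv20NC. All 3 OV143 libraries were lower than all 3 of Lv20NC, and replicate 2 was the lowest. Its log2 fold change was -0.97 (SE 0.27, 95% interval -1.60 to -0.35, limma adjusted p = 0.256), a level 49.0% lower on the scale of FPKM + 1, and with the block it passed (SE 0.16, adjusted p = 0.0205). NFKBIA was at 108, 96.4 and 85.9 FPKM in OV143, against 111, 139.7 and 126 FPKM in Lv20NC. The groups did not overlap, but OV143 replicate 1 and Lv20NC replicate 1 were nearly equal, so the first pair differed by only -0.04 on the log2 scale and the other pairs by -0.53 and -0.55 (log2 fold change -0.37, SE 0.13, adjusted p = 0.333, and 0.137 with the block). TNIP1 averaged 32.8 ± 2.55 FPKM in OV143 and 34.9 ± 2.26 FPKM in Lv20NC (SD, n = 3 each), with overlapping groups. Its log2 fold change of -0.09 had a 95% interval from -0.32 to 0.15.

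Both induced genes were lower without overlap, TNFAIP2 by a similar amount in each pair and BIRC3 by unequal amounts. TNFAIP2, which encodes a cytokine-induced regulator of membrane protrusions, was at 49.0, 42.7 and 43.5 FPKM in OV143, against 77.3, 78.6 and 71.5 FPKM in Lv20NC. The gap between the groups was wide, and the 3 pairs differed by -0.65, -0.86 and -0.70 on the log2 scale. TNFAIP2 ranked 13th of all tested genes by p (log2 fold change -0.74, SE 0.10, 95% interval -0.97 to -0.51, limma adjusted p = 0.0798), and with the block it passed (adjusted p = 0.00802). BIRC3, an inhibitor of apoptosis that ubiquitinates pathway components, was at 20.8, 10.6 and 17.9 FPKM in OV143, against 24.1, 22.0 and 27.6 FPKM in Lv20NC. Every OV143 library was below the control vector, with replicate 2 the lowest (log2 fold change -0.60, SE 0.23, adjusted p = 0.397, and 0.0638 with the block).

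OV143 replicate 2 was the lowest of the 6 libraries for TNFAIP3, BIRC3, REL, NFKB1 and TNFAIP2, and the highest OV143 library for RELA, RELB, NFKB2 and TNIP1. Without it, 4 of the 10 genes fell in the fit without the block, namely TNFAIP2 (log2 fold change -0.70, limma adjusted p = 0.00129), TNFAIP3 (-0.66, 0.0153), NFKB2 (-0.52, 0.0167) and RELB (-0.39, 0.0404), and 513 genes of the table passed. The values of REL, NFKB1 and BIRC3 were then closer to 0, at -0.27, -0.23 and -0.33, and that of TNIP1 was -0.14. Leaving out any other single library left no gene of the 10 called without the block. With the block, TNFAIP3 and TNFAIP2 passed without the libraries numbered 1, 2 or 3 (adjusted p up to 0.0116), although these fits of 4 libraries have a single residual degree of freedom. Where the FPKM of each library was rescaled to a sum of 1000000, the median of all genes moved by -0.11, and the 10 genes were lower than that median by 0.07 to 0.97.

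**Figure D2:**
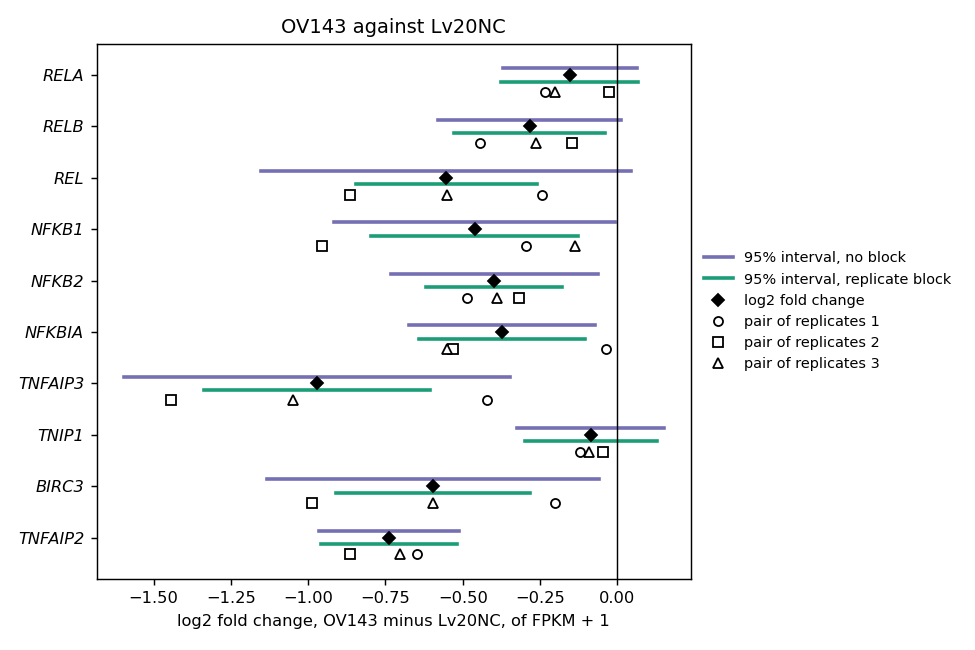
Log2 fold change of FPKM + 1, OV143 minus Lv20NC, for the 10 genes (diamonds), with the 95% interval of the limma fit without (upper bar) and with (lower bar) the replicate block, and the difference within each pair of libraries of the same number (open symbols). All 30 pair differences lie below 0, from -1.44 for TNFAIP3 to -0.03 for RELA.

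Other genes of the pathway, in 7 lists of 92 genes, were read in the same fit. In OV143 65 of 75 tested genes were lower than in Lv20NC, and 29 of the 75 had groups that did not overlap with OV143 lower, against 12.9% of all tested genes. For 2 of the 75, COMMD1 and TNFSF12, the groups did not overlap with OV143 higher. A share over all tested genes is not given for that direction. With the block 11 of the 75 fell and none rose, against 1.29% and 0.643% of all tested genes. Without the block none of the 75 passed. When OV143 replicate 2 was left out, 11 of the 17 list genes named here for OV143 passed without the block, all lower. In that fit 513 genes of the whole table passed, 359 of them lower. The 17 genes were named for their small p in this same comparison, so their count is not independent of it. In the list of other NF-κB target genes 20 of 20 were lower, with a median log2 fold change of -0.43, and 13 of 20 had OV143 below every control library. CCL20, which encodes a chemokine of the gut epithelium, was at 123, 114 and 120.1 FPKM in OV143, against 200.5, 218 and 199 FPKM in Lv20NC (log2 fold change -0.79, SE 0.09, limma adjusted p = 0.0762, and 0.00802 with the block). PTGS2, the inducible cyclooxygenase, was at 13.1, 6.78 and 15.9 FPKM in OV143, against 28.9, 25.2 and 25.4 FPKM in Lv20NC (-1.16, SE 0.27, 0.211, and 0.0130 with the block). Both genes had groups far apart.

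A further 4 targets fell with the block. The urokinase gene PLAU averaged 226 ± 32.5 FPKM in OV143 and 365 ± 17.4 FPKM in Lv20NC (SD, n = 3 each; log2 fold change -0.70, limma adjusted p = 0.0217 when blocked, 0.152 otherwise). The syndecan gene SDC4 averaged 397 ± 60.4 FPKM in OV143 and 646 ± 77.2 FPKM in Lv20NC (-0.71, 0.0209 and 0.202). The kinase gene NUAK2 averaged 13.2 ± 3.96 FPKM in OV143 and 25.4 ± 2.01 FPKM in Lv20NC (-0.93, 0.0209 and 0.207). The last was the neutrophil chemokine gene CXCL8, at means of 18.8 FPKM in OV143 and 30.5 FPKM in Lv20NC (-0.68, 0.0218 with the block). Not all targets differed: GADD45B averaged 21.1 FPKM in OV143 and 21.3 FPKM in Lv20NC, and the superoxide dismutase gene SOD2 40.4 and 43.3 FPKM. CXCL8, GADD45B and SOD2 were picked out after their values were seen.

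Among the IκB family and the kinases upstream of the factors most genes were lower, but few passed with the block. Of 5 genes of the IκB family all 5 were lower (median -0.48), and the nuclear IκB genes NFKBID (2.40 ± 0.603 FPKM in OV143 and 4.28 ± 1.01 FPKM in Lv20NC, log2 fold change -0.64) and BCL3 (7.31 ± 0.401 and 11.3 ± 1.63 FPKM, -0.56) fell with the block, by limma at adjusted p = 0.0297 and 0.0359. Of 11 genes of the IκB kinase complex and its upstream kinases 10 were lower (median -0.21). MAP3K14, the kinase of the slower route, was at 5.63, 4.44 and 5.75 FPKM in OV143, against 9.86, 9.56 and 9.14 FPKM in Lv20NC, and fell with the block (-0.75, limma adjusted p = 0.0132, and 0.112 without). IKBKB, a catalytic subunit of the complex, was at 31.2 ± 1.46 FPKM in OV143 and 38.2 ± 2.01 FPKM in Lv20NC and did not pass (adjusted p = 0.302, and 0.152 with the block).

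Of 17 receptors and adaptors 16 were lower (median -0.21). IRAK2, a kinase downstream of Toll-like and interleukin receptors, fell with the block (3.15 ± 1.00 FPKM in OV143 and 5.67 ± 0.796 FPKM in Lv20NC, log2 fold change -0.71, limma adjusted p = 0.0427), but not when the rescaled values were used with the block (0.0654). The adaptor gene BCL10 averaged 44.9 ± 1.95 FPKM in OV143 and 62.0 ± 5.79 FPKM in Lv20NC (-0.46, 0.0513 with the block). Among 3 ligands that passed the filter, the cytokine gene IL1A was at 38.5, 23.7 and 35.1 FPKM in OV143, against 52.2, 53.0 and 65.0 FPKM in Lv20NC, and fell with the block (-0.81, limma adjusted p = 0.0179, and 0.212 without). TNFSF12 ran the other way, at 26.4 ± 7.25 FPKM in OV143 and 19.5 ± 1.83 FPKM in Lv20NC (0.39, 0.123 with the block). Its log2 fold change was 0.18 without OV143 replicate 2, and 0.50 in the blocked fit without the libraries numbered 1. There TNFSF12 passed as higher (limma adjusted p = 0.0244), in a fit with a single residual degree of freedom. When the libraries numbered 3 were left out of the blocked fit, NFKBID and BCL3 no longer passed (limma adjusted p = 0.113 and 0.0564).

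The remaining lists were close to the rest of the table by their median log2 fold change. Of 8 TRAF, IAP and linear ubiquitin factors 4 were lower and 4 higher (median -0.03), and none passed. For 2 of the 8, TRAF3 among them, OV143 lay below every Lv20NC library, against 12.9% of all tested genes. TRAF3, a brake on MAP3K14, was at 7.52 ± 0.389 FPKM in OV143 and 9.08 ± 0.431 FPKM in Lv20NC (limma adjusted p = 0.397, and 0.225 with the block). TRAF5 was at 3.13 ± 0.745 FPKM in OV143 and 3.95 ± 0.423 FPKM in Lv20NC. Of 11 other negative regulators 8 were lower (median -0.08), and none passed. Groups did not overlap for 1 lower and 1 higher gene of the 11. N4BP1 (7.36 ± 1.28 FPKM in OV143 and 9.28 ± 0.527 FPKM in Lv20NC) and PDLIM2 (19.1 ± 2.38 FPKM and 23.3 ± 2.47 FPKM) had the smallest p of that list, with adjusted p = 0.194 and 0.190 in limma with the block. Without OV143 replicate 2 the log2 fold change of TRAF5 was -0.12, against -0.28 with it, and that of N4BP1 -0.17, against -0.31.

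**Figure D3:**
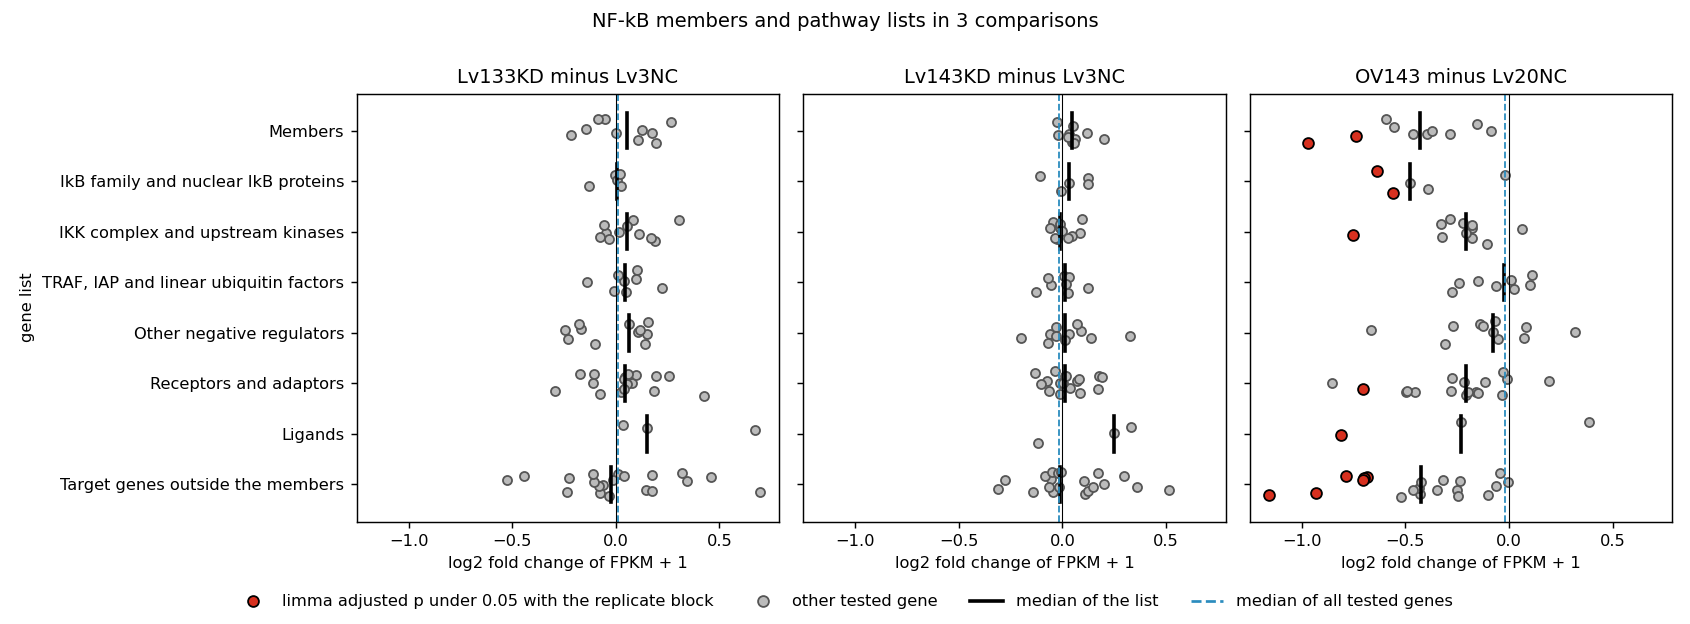
Log2 fold changes of FPKM + 1 of the 10 members and of the tested genes of 7 pathway lists in Lv133KD and in Lv143KD against Lv3NC and in OV143 against Lv20NC. Each point is a gene, red where limma with the replicate block gave an adjusted p under 0.05, black bars are list medians and the dashed line is the median of all tested genes. Red points appear only in OV143, 2 of the 10 members and 11 of 75 list genes, all below 0.

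The next question is how the same genes stood in cells given the knockdown vectors. None of the 10 genes passed in Lv133KD, with or without the block, in limma, while 0.0172% of all tested genes passed without the block and 0.258% with it. None had an unadjusted p under 0.05 in either fit, against 3.26% and 16.5% of all tested genes. For all 10 the Lv133KD and Lv3NC libraries overlapped, whereas 8.02% of all tested genes had groups that did not overlap. The log2 fold changes ran from -0.22 for NFKB2 to 0.27 for TNFAIP3, with a median of 0.05, against 0.01 over all 11645 tested genes. NFKB2 was at 39.2, 29.2 and 31.0 FPKM in Lv133KD replicates 1 to 3, against 39.2, 29.0 and 49.8 FPKM in Lv3NC. The first and second pairs were nearly equal, and only the third differed. TNFAIP3 was at 58.2, 23.3 and 33.8 FPKM in Lv133KD, against 36.5, 29.3 and 24.3 FPKM in Lv3NC, so that the Lv133KD libraries lay on both sides of the control vector. The 95% interval of its log2 fold change, -0.65 to 1.18, was the widest of the 10. BIRC3 was the one gene of the 10 lower in all 3 pairs, with pair differences of -0.21, -0.17 and -0.06 on the log2 scale (limma adjusted p = 0.409 with the block), and REL the one higher in all 3, against 16.8% and 16.2% of all tested genes.

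Lv143KD gave the same picture, and it shares the Lv3NC libraries with the comparison above. None of the 10 passed in limma with or without the block, none without the block and 1 with it had an unadjusted p under 0.05, and no gene had groups that did not overlap. Over all tested genes 0.0172% passed without the block and 0.172% with it, 1.79% and 5.74% had an unadjusted p under 0.05, and 4.14% had groups that did not overlap. The values ran from -0.02 for RELB to 0.20 for REL (median 0.05, against -0.01 over all genes). REL was at 7.61, 5.03 and 6.20 FPKM in Lv143KD, against 6.26, 4.08 and 5.65 FPKM in Lv3NC. It was the one gene of the 10 higher in each pair, as were 11.7% of all tested genes, while its groups overlapped (limma adjusted p = 0.838 with the block). TNFAIP3 was at 58.3, 23.7 and 21.3 FPKM in Lv143KD. In both knockdown vectors the first library was far above the others for this gene. The same held for NFKBIA, at 95.7, 58.6 and 51.8 FPKM in Lv133KD, 93.9, 69.0 and 49.5 FPKM in Lv143KD, and 67.3, 71.8 and 60.0 FPKM in Lv3NC. The group means of NFKBIA were nevertheless close, at 68.7 ± 23.6, 70.8 ± 22.3 and 66.4 ± 5.91 FPKM in Lv133KD, Lv143KD and Lv3NC (SD, n = 3 each).

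Set directly against Lv143KD, Lv133KD had none of the 10 genes called. In limma 0 passed with or without the block, 0.00% of all genes did, and at an unadjusted p under 0.05 the counts were 0 of the 10 without the block and 1 with it (0.129% and 1.79% of all genes). The groups overlapped for all 10 genes, and 2.66% of all tested genes had groups that did not. The log2 fold changes ran from -0.20 for BIRC3 to 0.20 for TNFAIP3. BIRC3 was at 27.5, 14.3 and 24.0 FPKM in Lv133KD, against 36.2, 15.1 and 26.8 FPKM in Lv143KD, lower in each pair, as were 10.4% of all tested genes (limma adjusted p = 0.910 with the block).

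Among the 75 tested list genes none passed in any of the 3 knockdown comparisons, with or without the block. Groups did not overlap for 3 lower and 2 higher list genes in Lv133KD against Lv3NC, beside 8.02% of all tested genes. In Lv143KD against Lv3NC this held for 1 lower and 2 higher list genes, beside 4.14%. Between Lv133KD and Lv143KD it held for 1 list gene, higher in Lv133KD, beside 2.66%. In Lv133KD the urokinase gene PLAU had the smallest p, at 226 ± 17.0 FPKM with Lv133KD and 309 ± 36.0 FPKM with Lv3NC, in groups that did not overlap (log2 fold change -0.44, limma adjusted p = 0.926, and 0.136 with the block). The chemokine gene CCL2 averaged 4.01 ± 0.586 FPKM with Lv133KD and 2.69 ± 0.800 FPKM with Lv3NC. TNFRSF12A, a receptor gene of the TNF family, averaged 277 ± 9.50 FPKM with Lv133KD and 341 ± 43.0 FPKM with Lv3NC. IL1A stood at 59.1 ± 23.3 FPKM with Lv133KD and 36.1 ± 12.2 FPKM with Lv3NC, a log2 fold change of 0.67 that was within the spread of the libraries (limma adjusted p = 0.926). The first-ranked genes of the other lists had log2 fold changes of 0.02 for NFKBIZ, -0.13 for BCL3, 0.19 for IKBKB, 0.31 for RIPK1, 0.22 for TRAF3, -0.14 for XIAP, -0.25 for CYLD, -0.23 for PDLIM2, -0.17 for IRAK4 and 0.15 for TNFSF10.

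In Lv143KD the first-ranked list genes were PLAU, at 255 ± 33.4 FPKM in Lv143KD and 309 ± 36.0 FPKM in Lv3NC, and TNFAIP8, a gene of the same induced family name as TNFAIP2 and TNFAIP3, at 9.68 ± 0.429 FPKM in Lv143KD and 8.29 ± 0.644 FPKM in Lv3NC. The interleukin receptor gene IL1R1 was at 2.52 ± 0.170 FPKM in Lv143KD and 2.12 ± 0.176 FPKM in Lv3NC. The log2 fold changes of the others were 0.19 for IL1RAP, 0.12 for NFKBIZ, 0.12 for NFKBID, 0.09 for IKBKB, -0.06 for MAP3K7, -0.13 for XIAP, -0.07 for TRADD, -0.20 for PDLIM2, 0.14 for COMMD1, 0.25 for TNFSF10 and -0.12 for TNFSF12, none of which passed (limma adjusted p = 1.00 throughout, without the block). Between Lv133KD and Lv143KD they were -0.20 for CD44, -0.17 for PLAU, 0.34 for IL1A, 0.20 for MYD88, 0.19 for TAB1, 0.16 for IKBKG, 0.15 for TNFSF12, -0.15 for IL1RAP, 0.14 for TNIP2, -0.13 for TAX1BP1, 0.11 for RBCK1, -0.11 for NFKBID, -0.10 for NFKBIZ and 0.08 for TRADD, with limma adjusted p = 1.00 for each.

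Within the knockdown table several of the NF-κB genes differed by replicate number. The libraries numbered 2 were the lowest of their group for RELB, REL, NFKB1, NFKB2 and BIRC3 in all 3 groups, and for these 5 genes the 3 libraries numbered 2 lay below all 6 others, which was so for 19.1% of all tested genes. In a limma fit of group and replicate number, a comparison chosen after the data were seen, 6 of the 10 genes were lower in the libraries numbered 2 than in those numbered 1 and 3, against 20.8% of all tested genes, and none was higher (13.2%). BIRC3 averaged 15.2 ± 0.966 FPKM in the 3 libraries numbered 2 and 28.6 ± 4.66 FPKM in the other 6 (log2 difference -0.85, SE 0.07, limma adjusted p = 0.000149). NFKB2 averaged 28.2 ± 1.66 FPKM in those numbered 2 and 41.7 ± 7.00 FPKM in the others (-0.54, adjusted p = 0.00993), and NFKB1 14.1 ± 0.967 and 20.9 ± 2.80 FPKM (-0.53, adjusted p = 0.00249). The values of REL, RELB and TNFAIP3 were -0.45, -0.40 and -0.49 (adjusted p = 0.00241, 0.00410 and 0.0438). For TNFAIP3 the library numbered 2 was the lowest in only 1 of the 3 groups, Lv133KD. The library numbered 1 was the highest for this gene in each group. RELA, at 42.8 ± 2.70 and 38.6 ± 7.12 FPKM, NFKBIA, at 66.4 ± 6.94 and 69.7 ± 20.4 FPKM, and TNIP1, at 30.4 ± 0.868 and 29.8 ± 5.26 FPKM, did not pass, nor did TNFAIP2, at 33.7 ± 6.12 and 48.1 ± 14.7 FPKM (-0.45, adjusted p = 0.0636). The labels do not say what a replicate number marks.

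The libraries numbered 3 split the subunits in another way. NFKB2 was highest in Lv143KD replicate 3 and Lv3NC replicate 3, at 48.8 and 49.8 FPKM, the same libraries in which RELA was lowest, at 31.9 and 28.4 FPKM. Lv133KD replicate 3 did not share this, with NFKB2 at 31.0 FPKM and RELA at 38.6 FPKM. The ratio of NFKB2 to NFKB1 was therefore 2.31 in Lv143KD replicate 3 and 2.81 in Lv3NC replicate 3, while it lay between 1.65 and 2.06 in the other 7 knockdown-table libraries. In the overexpression table that ratio was 2.93 in OV143 replicate 2 and 1.30 to 1.36 in the other OV143 libraries, against 1.55 to 1.80 in Lv20NC. It averaged 1.86 ± 0.925 in OV143 and 1.64 ± 0.144 in Lv20NC (SD, n = 3 each), a difference within the spread (two-sided exact permutation p = 1.00, where 0.1 is the smallest that 3 against 3 libraries allow). RELA made up 72.7% ± 2.26 of the summed RELA, RELB and REL level in OV143 and 68.8% ± 1.26 in Lv20NC, and these groups did not overlap (two-sided exact permutation p = 0.1, the smallest possible).

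**Figure D4:**
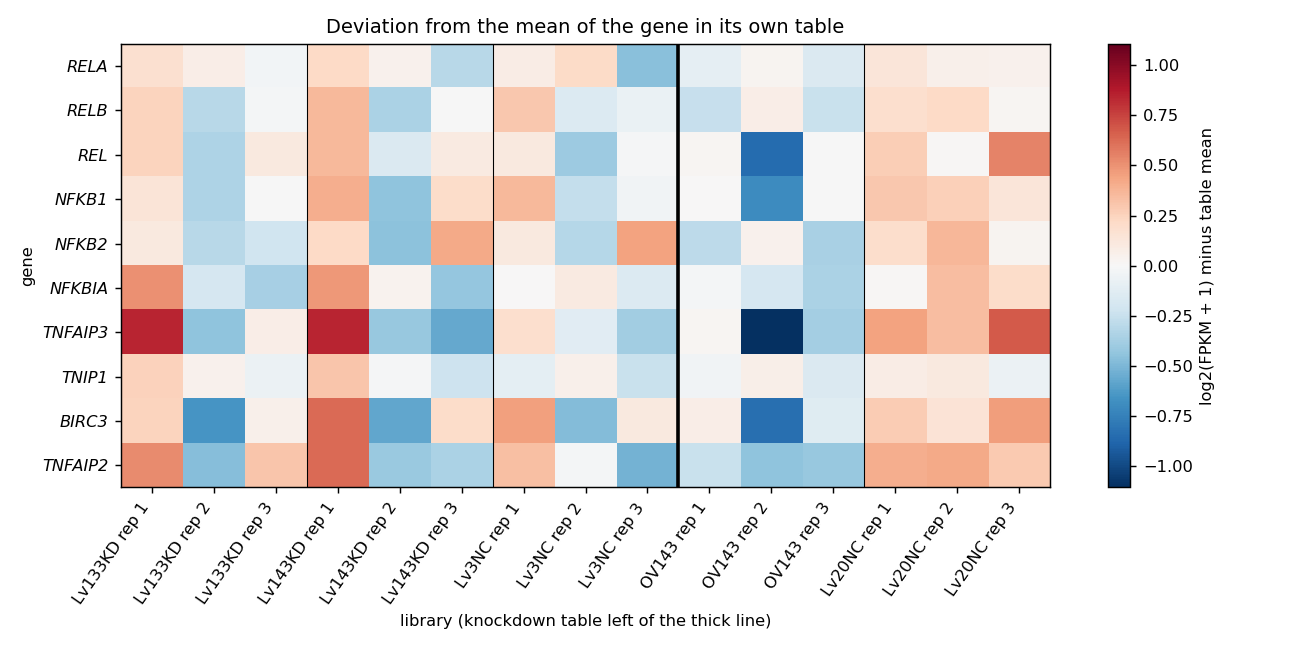
Deviation of log2(FPKM + 1) of each gene (rows) from its mean over its own table, in each library (columns; knockdown table left of the thick line). Blue is below and red above the mean. The second library of each knockdown-table group is blue for BIRC3, NFKB1, NFKB2, RELB and REL, and TNFAIP3 is highest in Lv133KD replicate 1 and Lv143KD replicate 1 and lowest in OV143 replicate 2, at -1.11.

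The genes whose pattern over the 15 libraries was most like that of 4 of the NF-κB genes were looked up among 8139 genes, with log2 values centred on the mean of each table. JAG1, a Notch ligand gene, IL1A and the circadian repressor gene BHLHE41 were most like TNFAIP3 (Pearson r = 0.94, 0.93 and 0.93). EDN1, which encodes endothelin, IFFO2 and the kinase gene IKBKE were most like NFKBIA (r = 0.82, 0.79 and 0.77). NFKB2 was followed most closely by TSPAN5, PCBP4 and PPP1R18 (r = 0.94, 0.93 and 0.92), and RELA by PAXIP1, GBA2 and EXOSC2 (r = 0.98, 0.98 and 0.96). These values describe the 15 libraries, share their libraries and their replicate numbers, and carry no test.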

How the data were processed

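RNA sequencing of 15 libraries of IPEC-J2 cells was analysed from 2 tables of FPKM values per gene, which the authors deposited with 2 decimals, per the file headers. The submitters' processing notes name the build Sscrofa11.1. Aligner, counting tool and strand use: not given in the sources used here. Gene symbols came from a RefSeq gene table of that build, which matched 18618 and 16949 genes, and its 1-based coordinates place RELA on chromosome 2 (6594869 to 6602684), RELB on 6 (51444670 to 51480350), REL on 3 (80861862 to 80912233), NFKB1 on 8 (118391010 to 118478927), NFKB2 on 14 (113406412 to 113414177), NFKBIA on 7 (64508119 to 64510754), TNFAIP3 on 1 (26474158 to 26489771), TNIP1 on 16 (71926038 to 71979969) and BIRC3 on 9 (33003570 to 33020252), with TNFAIP2 on a sequence of no assigned chromosome. All columns were used.

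Values were analysed as log2(FPKM + 1), a scale that understates changes of low genes. Each table was fitted alone and whole with limma 3.58.1 in R 4.3.3 (trended variance, two-sided, Benjamini-Hochberg over the 11645 or 11506 tested genes, threshold 0.05). The fit was tested on simulated data. Low values did not give relative depth, since only 4 and 15 genes were above 0 in 2 or 3 libraries at 0.2 FPKM or more, so precision is given as SD and SE. Deviations of libraries with the same replicate number correlated at 0.27 to 0.85 and 0.23 to 0.72, above the limit of 0.1 set for pairing. Values of the blocked fit therefore accompany results whose call it alters. Libraries with unlike numbers gave -0.87 to 0.38 and -0.68 to 0.54, knockdown values first. OV143 replicates 2 and 3 were most like the Lv20NC library of their own number (r = 0.72 and 0.55). OV143 replicate 1 was instead closer to Lv20NC replicate 3 (r = 0.54) than to Lv20NC replicate 1 (r = 0.23). For that library the pairing by number is therefore uncertain.

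The 10 genes and the lists were chosen with earlier results of these data known. Named genes are the 10, up to 4 genes of each list passing in either fit or else the 2 with the smallest p, and the 3 genes most like each of 4 members among those averaging at least 5 FPKM. Alternatives were pseudocounts, filter, scaling, block, library weights, variance trend and left-out libraries.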

Additional observations from a re-analysis of the deposited data

How the results depend on the processing

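All 10 NF-κB genes stayed lower in OV143 than in Lv20NC in each of 100 values under the other settings. The same held when any 1 library or pair was left out. In this balanced design the block, the low-value filter and the variance trend leave the fold change unaltered. Values under those settings therefore repeat others and add nothing on direction. Of the 10, the number called in OV143 was 2 with the replicate block, alone or with either scaling. It was 7 with library weights, whose estimation in the overexpression table stopped before it converged, and 0 to 7 when libraries were left out. The count over all genes in OV143 was 5 with median ratio scaling, 223 with the replicate block, 140 and 221 with the block and rescaling to 1000000 or median ratio scaling, 2650 with library weights, and 0 to 1466 with libraries left out. In Lv133KD the 2 genes called over the table became 1 with median ratio scaling or no filter, 0 with untrended variance, 30 with the replicate block, 37 and 43 with the block and rescaling or median ratio scaling, 205 with library weights, and 0 to 72 with libraries left out. In Lv143KD the 2 became 1, 1, 0, 20, 20, 30 and 70 in the same order, and 0 to 60 with libraries left out. Beside these, the other counts kept within 1.5 times.

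Of 300 values of the 10 genes in the knockdown comparisons under the other settings, 11 changed sign. Some of these are the same value with and without the block. The changes given below also include the list genes TNFSF10, IL1RAP, TNFSF12, RBCK1 and IL1A, which are not among the 300. On the log2 scale, NFKBIA in Lv133KD was -0.0072 with median ratio scaling, with or without the block, and TNFSF10 -0.054 with library weights. In Lv143KD, NFKB2 was 0.0036 when rescaled, with or without the block, and library weights gave RELB 0.0051, NFKB1 -0.00299, NFKB2 0.058, IL1RAP -0.023 and TNFSF12 0.029. For Lv133KD against Lv143KD library weights gave RELA -0.067, TNFAIP3 -0.15, TNIP1 -0.10, TNFAIP2 -0.0920, RBCK1 -0.0369 and IL1A -0.039. The cause was not tested.

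Leaving out libraries changed no sign for TNIP1 in Lv133KD (0.08 to 0.27) or REL in Lv143KD (0.05 to 0.33), but it changed that of every other gene of the 10 in at least 1 setting of each knockdown comparison, and of all 10 between Lv133KD and Lv143KD. It moved the Lv133KD values of NFKBIA from -0.26 to 0.18, NFKBIZ from -0.14 to 0.18, BCL3 from -0.42 to 0.24, RELA from -0.075 to 0.26, NFKB2 from -0.42 to 0.0062, TNFAIP2 from -0.13 to 0.51, TNFSF10 from -0.039 to 0.36, REL from -0.043 to 0.28, TNFAIP3 from -0.076 to 0.57, RELB from -0.19 to 0.087, NFKB1 from -0.23 to 0.084 and BIRC3 from -0.40 to 0.12. In Lv143KD it moved RELA from -0.16 to 0.19, NFKBIA from -0.18 to 0.28, TNFAIP3 from -0.38 to 0.32, TNIP1 from -0.027 to 0.24, BIRC3 from -0.21 to 0.39, TNFAIP2 from -0.31 to 0.24, NFKBIZ from -0.015 to 0.35, RELB from -0.20 to 0.15, NFKB2 from -0.22 to 0.24, TRADD from -0.16 to 0.024, NFKB1 from -0.14 to 0.28, TNFSF12 from -0.21 to 0.0044, NFKBID from -0.062 to 0.39, IKBKB from -0.026 to 0.19 and PDLIM2 from -0.38 to 0.0021. Between Lv133KD and Lv143KD it moved RELB from -0.20 to 0.15, NFKBIA from -0.31 to 0.18, RELA from -0.062 to 0.20, NFKB2 from -0.46 to 0.021, TNFAIP3 from -0.14 to 0.65, TNFAIP2 from -0.080 to 0.50, NFKBIZ from -0.32 to 0.054, RBCK1 from -0.0010 to 0.24, IL1A from -0.021 to 0.79, TNIP1 from -0.066 to 0.20, REL from -0.22 to 0.079, NFKB1 from -0.37 to 0.055, BIRC3 from -0.53 to 0.069 and NFKBID from -0.37 to 0.089.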
